A study of Rattus norvegicus with 24 samples.

Results

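The nuclear-coded subunits of the mitochondrial respiratory chain were followed in the rat thyroid under iodine deficiency and perchlorate. The set was a fixed list of 45 gene symbols, and each gene was represented by its brightest probe set (a group of short probes for 1 transcript) among those annotated to that symbol alone. Of the 45 genes, 41 were measured in this way, out of 14217 genes on the array. They comprised 25 genes of complex I (Ndufa4 counted here by its symbol), 4 of complex II, 5 of complex III and 7 of complex IV. Ndufa10, Uqcrb, Cycs and Cox7a2 lay only on probe sets shared with other symbols and were not analysed here. The list holds no gene of complex V, which is described from a separate list.

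The samples were thyroids of adult male Sprague-Dawley rats, with 1 array per sample and 8 groups of 3. At each of 2 times there were controls on normal diet and normal water, rats on normal diet with perchlorate water, rats on an iodine-deficient diet with normal water, and rats on the deficient diet with perchlorate water. Perchlorate was given as 95 mg of the potassium salt per liter of drinking water for 1 or 14 days. All rats were housed for 2 months plus that number of days, and the deficient diet ran for the whole of that time, so "day 1" in the diet groups follows about 2 months of feeding. The series' design text asks what the diet did and what perchlorate did to gene expression. The labels do not say that each sample was a separate animal, so p-values reflect only how far these samples spread, part of which may be technical.

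Complex I takes electrons from NADH and complex II takes them from succinate. Complex III passes them on to cytochrome c, and complex IV hands them to oxygen. Complexes I, III and IV pump protons across the inner mitochondrial membrane, and ATP synthase, also called complex V, uses the gradient to make ATP. Thyroid follicular cells need this ATP to drive the sodium pump that powers iodide uptake, which perchlorate blocks by competing at the sodium iodide symporter. Brown adipocytes, found in the neck and chest of rodents, and muscle hold many mitochondria, so their RNA is rich in the same subunits.

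All 41 subunits passed the filter on low signal, and 34 of them lay above the 90th percentile of mean signal over all probe sets. A level here is a normalised log2(intensity + 16), and levels of different probe sets are not compared with each other. No subunit differed between groups in any of 14 pairwise or combined comparisons with limma at an adjusted p under 0.05. At an unadjusted p under 0.05 each comparison held from 0 to 10 subunits, where 3.11% to 21.7% of all probe sets passed. In a moderated F test over all 8 groups at once, 1 of the 41 subunits was called, the complex I flavoprotein Ndufv1, beside 7.8% of all 18625 probe sets tested. As a reference in the same arrays, Slc5a5, the sodium iodide symporter, was 1.70 higher (log2, SE 0.19, adjusted p = 1.12e-05) under diet plus perchlorate at day 14 than in its controls.

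**Figure D1:**
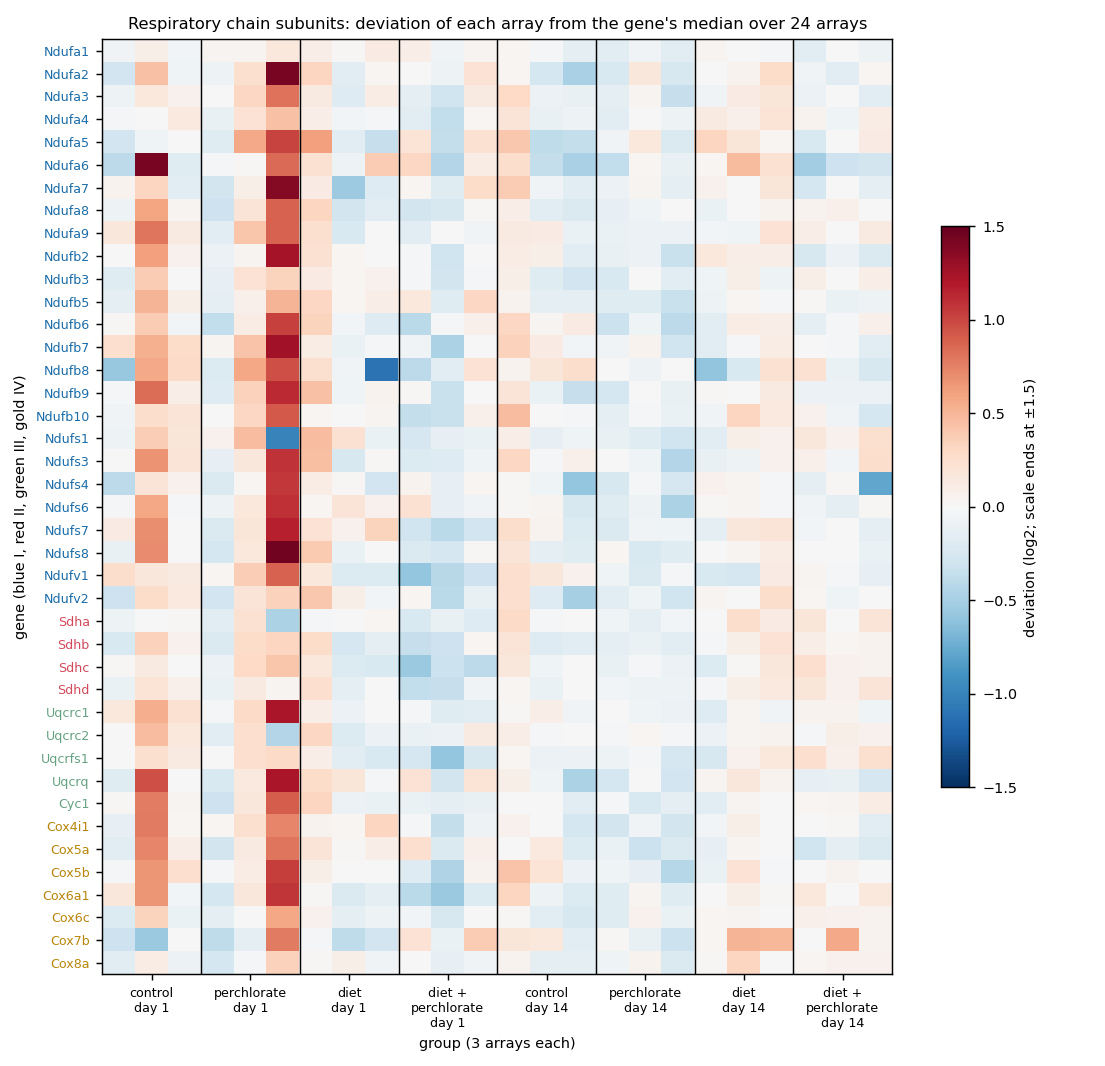
Deviation of each of 41 subunits (rows, by complex) from its own median over 24 arrays (columns, 3 per group), in log2 units, red above and blue below the median. Replicate 18 of the perchlorate day 1 group and replicate 22 of the control day 1 group are red in 38 of 41 rows each. Their medians over the subunits, 0.89 and 0.44, are the highest of the 24 arrays. Replicate 3 of the diet plus perchlorate day 1 group is below the median in all 41 rows. Control replicate 43 of day 14 is above it in 40, though the day 14 columns are pale.

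Within a group, the arrays correlated at 0.851 to 0.98 over probe sets (Pearson), and 0 pairs were identical. Beside their own medians over the 24 arrays, the subunits deviated most in 2 arrays of day 1. In perchlorate replicate 18 their median deviation was 0.89, and in control replicate 22 it was 0.44. The other 22 arrays lay between -0.25 and 0.19. Smaller joint shifts occurred among them. All 41 subunits were below their medians in diet plus perchlorate replicate 3 of day 1, at a median of -0.25. In control replicate 43 of day 14, 40 were above, at a median of 0.13. Perchlorate replicate 18 and control replicate 22 also stood apart over all probe sets tested. There the median absolute deviation was 0.66 in replicate 18 and 0.27 in replicate 22, against 0.12 to 0.20 in the other 22. The SD of a subunit within a group had a median of 0.36 at day 1 and of 0.13 at day 14, against 0.33 and 0.20 over all probe sets tested. Because these are bulk samples, fewer mitochondria-rich cells and less RNA per cell cannot be told apart.

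Replicate 18 was high in 38 of the 41 subunits and low in 3 of them. Ndufs1, the largest iron-sulfur subunit of complex I, was at 9.83 in that array and between 10.53 and 11.30 in the others. Sdha, the flavoprotein of complex II, was at 12.15 there and from 12.39 to 12.91 elsewhere. Uqcrc2, a core protein of complex III, was at 11.99 there and at 12.24 or more elsewhere. The 3 genes were thus below every other array in the array where the median of the subunits was highest. The array's own beta-actin control probe sets, which compare the 3' with the 5' end of the transcript as a sign of RNA integrity, gave a log2 ratio of 3.93 in this array and of 3.01 to 3.69 in the other 22 arrays, with 3.62 in control replicate 22. The same ratio for GAPDH was 2.83 in replicate 18 and 3.34 in control replicate 22, against 1.64 to 3.34 in the other 22 arrays. For hexokinase it was 0.90 and 1.65, within the 0.74 to 2.85 of the others. Replicate 2 of the diet plus perchlorate day 1 group held 3 of these range ends. It had the 3.69 for actin, the 3.34 for GAPDH and the 0.74 for hexokinase. The part of these ratios in the result was not tested.

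Markers of other tissues varied between arrays in the same groups. Ucp1, the uncoupling protein that defines brown adipocytes, ran from 4.20 to 12.79 over the 24 arrays. In the day 1 controls it was at 12.79, 10.16 and 11.80 in replicates 22, 21 and 24, and in the perchlorate day 1 group at 8.64, 12.49 and 11.86 in replicates 15, 16 and 18. In the diet plus perchlorate group of day 1 it was at 9.78, 4.20 and 10.06. Ucp1 was thus high in all 3 day 1 controls, and lower in each of the day 1 arrays of the combined group. The summed intensity of the 3 measured brown adipocyte markers was 1523 to 9905 in the day 1 controls and 132.9 to 1751 in that combined group. The sum of 21 measured skeletal muscle markers ran from 8342 to 26020 and from 8063 to 45770 in these same groups. Myh1, a muscle myosin, made up much of the low sums and was between 11.98 and 13.03 in every array. Without it, a choice made after its values were seen, the sum of the other 20 ran from 2508 to 20300 in the day 1 controls and from 630.9 to 39750 in the combined group. For 8 measured adipocyte markers of 9 listed, it ran from 2742 to 15300 and from 889.8 to 6444. The sum of 10 measured thyroid follicular cell markers ran from 40170 to 57410 over the 24 arrays, with Tg, the hormone precursor, at 13.80 ± 0.21 (SD, n = 3) in the day 1 controls. The part of these tissues in the values of the subunits was not tested.

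**Figure D2:**
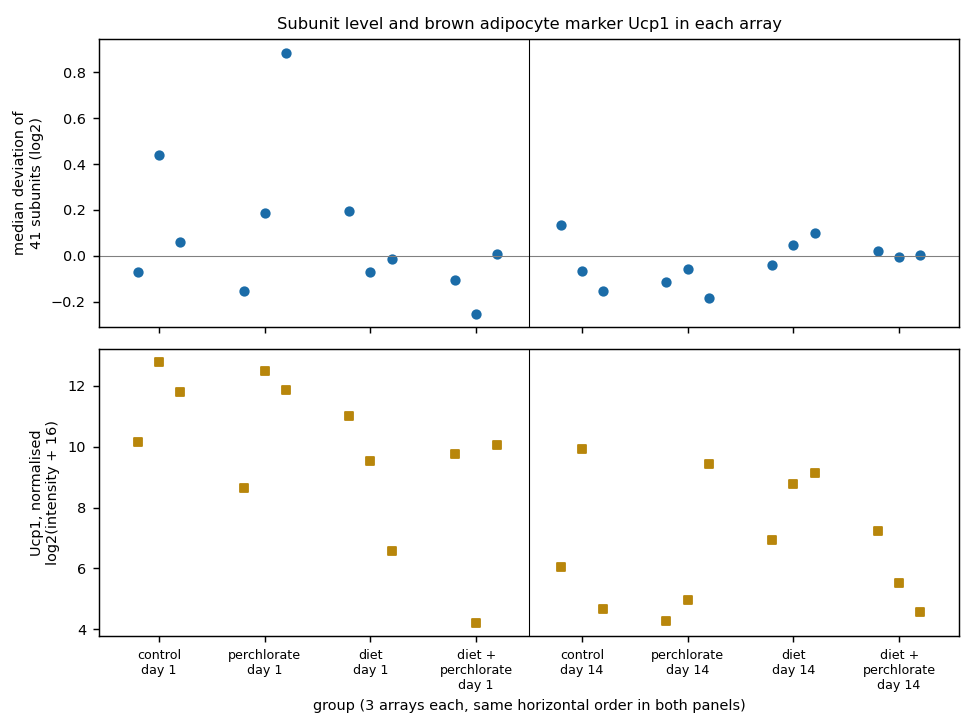
Upper panel: median deviation of the 41 subunits in each array (log2). Lower panel: normalised log2(intensity + 16) of Ucp1 in the same arrays, in the same horizontal order within each group of 3. The highest subunit medians, 0.89 and 0.44, belong to day 1 arrays with Ucp1 at 11.86 and 12.79, and Ucp1 also reaches 12.49 in an array whose subunit median is 0.19.

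Ndufv1 carries the flavin that accepts electrons from NADH, the entry point of complex I. In the day 1 controls its level was 11.08, 11.18 and 11.04, and under diet plus perchlorate at day 1 it was 10.33, 10.49 and 10.60. The diet alone gave 11.06, 10.70 and 10.70 at day 1, and perchlorate alone 10.94, 11.28 and 11.80. The 3 arrays of the combined group were below all other day 1 arrays, and the perchlorate arrays overlapped the controls. At day 14 the controls were at 11.16, 11.07 and 10.97, the diet group at 10.68, 10.65 and 11.03, the perchlorate group at 10.84, 10.69 and 10.88, and the combined group at 10.95, 10.88 and 10.78. The perchlorate and the combined groups lay below the day 14 controls without overlap, and 1 diet array lay within them.

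The F test over the 8 groups gave F = 4.74 and an adjusted p of 0.0373 for Ndufv1. The call was lost in 22 of 33 alternative settings, among them values as deposited and most fits without a single array. In the comparison with the largest difference, diet plus perchlorate against control at day 1, Ndufv1 was 0.62 lower (SE 0.17, 95% interval -0.97 to -0.27), with a limma adjusted p of 0.106. Without the 2 arrays that stood apart the same difference was -0.63 and passed, with an adjusted p of 0.0248, beside 1.82% of all probe sets called in that fit. The F test without those arrays called 1 subunit, again Ndufv1, beside 14.3% of probe sets.

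Complex II has 4 subunits, all coded in the nucleus: Sdha and Sdhb carry electrons, and Sdhc and Sdhd anchor them in the membrane. Sdhc, the subunit of complex II with the smallest p in the F test (adjusted p = 0.0697), was at 12.35, 12.23 and 12.22 in the day 1 controls. Under diet plus perchlorate at day 1 it was at 11.67, 11.90 and 11.82. It was at 12.38, 12.01 and 11.99 with the diet alone and at 12.13, 12.52 and 12.63 with perchlorate alone. The combined group was below every other day 1 array, with a difference from control of -0.47 (SE 0.14, limma adjusted p = 0.136). At day 14 the combined group was at 12.47, 12.29 and 12.27 and the controls at 12.39, 12.15 and 12.22, and these overlapped. Sdhd, the other anchor, was 0.32 lower under diet plus perchlorate at day 1 (SE 0.11, limma adjusted p = 0.278).

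In complex III the smallest p of the F test was that of Uqcrfs1, the Rieske iron-sulfur protein (adjusted p = 0.0824). Its level was 11.68, 11.43 and 11.57 in the day 1 controls and 11.18, 10.85 and 11.19 under diet plus perchlorate. The diet alone gave 11.54, 11.28 and 11.21 at day 1, and perchlorate alone 11.44, 11.69 and 11.72. The combined group again lay below its controls without overlap, by 0.48 (difference -0.48, SE 0.13, limma adjusted p = 0.12). At day 14 the order was the opposite for this gene: 11.68, 11.51 and 11.67 in the combined group stood above 11.46, 11.35 and 11.34 in the controls, a difference of 0.24 (95% interval -0.041 to 0.52) that did not pass. All 5 measured subunits of complex III had a negative difference for diet plus perchlorate at day 1, from -0.48 to -0.21.

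In complex IV the smallest p belonged to Cox6a1, the widely expressed form of subunit 6a, with an adjusted p of 0.336 in the F test. It was at 12.41, 11.91 and 11.71 in the day 1 controls and at 11.34, 11.19 and 11.54 under diet plus perchlorate, which did not overlap. Perchlorate alone spanned 11.49 to 12.82 at day 1, and diet alone 11.53 to 11.76. The difference of the combined group from control was -0.65 (SE 0.23, limma adjusted p = 0.266), and it was -0.46 without control replicate 22. Cox7b, a small subunit of the same enzyme, was on the other side: 11.21, 10.89 and 11.37 in the combined group against 10.44, 10.69 and 10.99 in the controls, with overlap and a difference of 0.45 that did not pass.

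**Figure D3:**
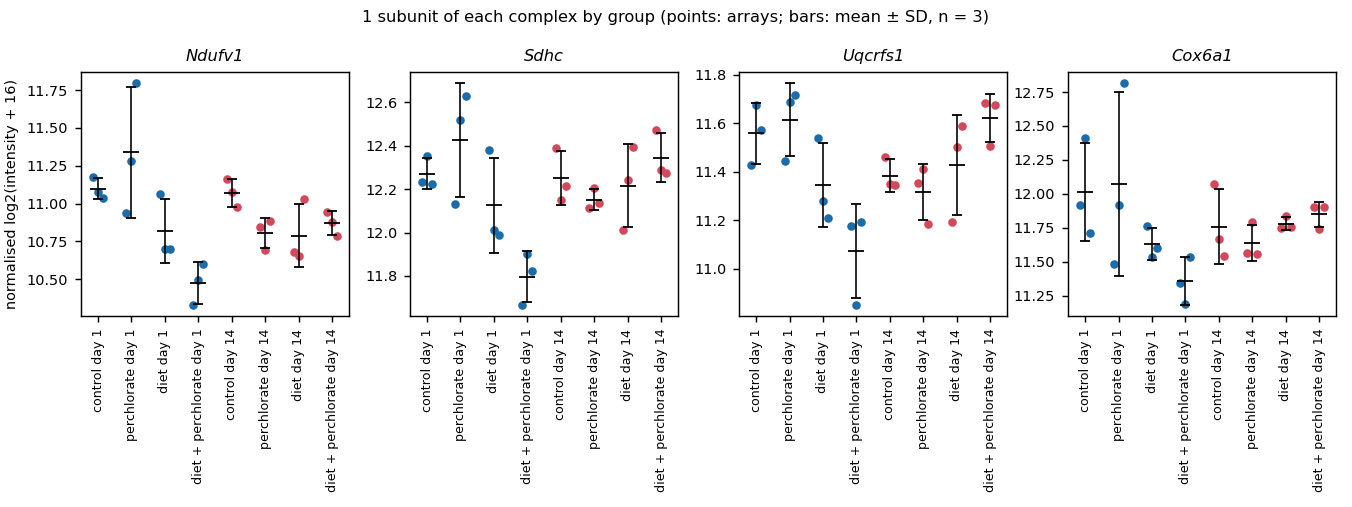
Normalised log2(intensity + 16) of the subunit with the smallest F-test p in each complex, by group (blue day 1, red day 14; bars are mean ± SD, n = 3; vertical axes do not start at 0 and differ between panels). The combined group of day 1 is the lowest group in all 4 panels, and at day 14 it overlaps the controls for Sdhc and Cox6a1.

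The combined treatment of day 1 was where the subunits as a group sat furthest from their controls. Of the 41 subunits, 0 were called against 0.601% of all probe sets, 36 had a negative difference, and the median was -0.27 against -0.0067 over all probe sets tested. The 4 of smallest p were Ndufv1, Uqcrfs1, Sdhc and Cox6a1. In 13 subunits the combined arrays were all below the controls, where 9.76% of all probe sets showed that; they were Ndufa9, Ndufb2, Ndufb7, Ndufs1, Ndufs3, Ndufs7, Ndufv1, Sdha, Sdhc, Uqcrc1, Uqcrfs1, Cyc1 and Cox6a1. At an unadjusted p under 0.05 there were 10 subunits, all lower, where 10.6% of all probe sets passed in either direction. The 95% interval lay within 1 log2 unit of 0 for 39 subunits and within 0.5 for 7, so differences were bounded to 2-fold for most. Without the 2 arrays that stood apart, 23 intervals lay within 0.5.

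That shift depended on the arrays included. Without perchlorate replicate 18 and control replicate 22 the median of the 41 subunits was -0.11, with 27 negative and 14 positive. In that fit 1 subunit was called, Ndufv1. Of the 2 arrays only control replicate 22 is in this comparison, so the median moved through it. Replicate 18 enters only the spread shared by all groups. On the values as deposited, 27 of 41 subunits were negative and their median was -0.052, while the median of all probe sets was 0.20. Relative to that median the subunits were at -0.25 as deposited and at -0.26 after quantile normalization. Ucp1 was 3.57 lower in the same comparison (SE 1.60, limma adjusted p = 0.428), and its part in the result was not tested.

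By complex, the medians of this comparison were -0.24 for 25 subunits of complex I, -0.29 for the 4 of complex II, -0.40 for the 5 of complex III and -0.19 for the 7 of complex IV. In complex I, the iron-sulfur subunit Ndufs7 was 0.61 lower (difference -0.61, limma adjusted p = 0.334) and the membrane-arm accessory subunit Ndufb7 was at -0.53 (limma adjusted p = 0.346). The interaction of diet and perchlorate at day 1 asks whether the combined value departs from the sum of the separate ones. It called 0 subunits beside 0.0107% of probe sets, with a median of -0.29 and 39 of 41 negative. The smallest p there was that of Sdhc (-0.49, SE 0.19, limma adjusted p = 0.494). Without perchlorate replicate 18 that median was 0.024.

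**Figure D4:**
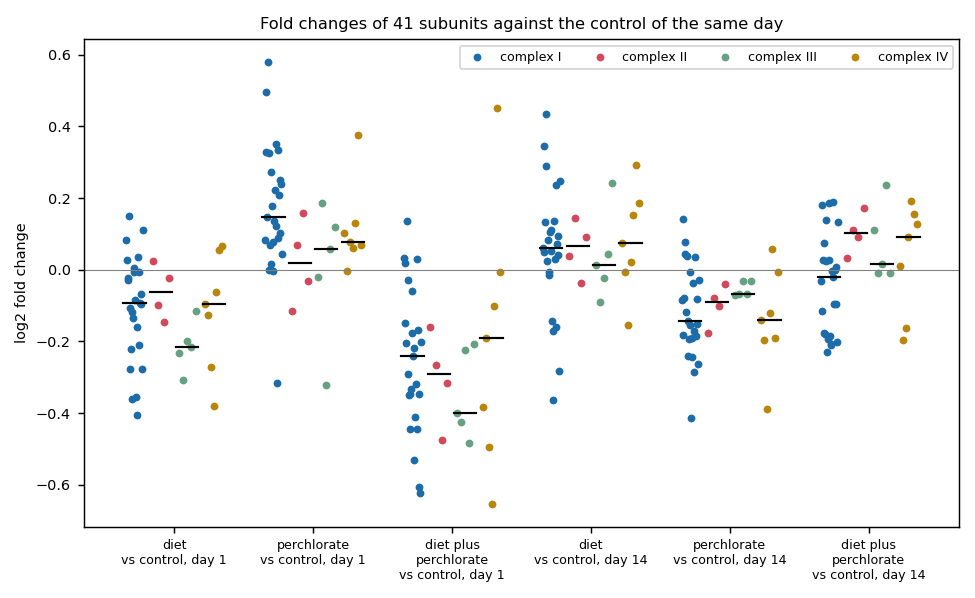
Log2 fold change of each of the 41 subunits (points, coloured by complex) against the control of the same day, with the median of each complex as a black line. The 3 comparisons of a day share the same control arrays. Diet plus perchlorate at day 1 has medians from -0.40 to -0.19, and the other comparisons have medians between -0.21 and 0.15.

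For each treatment alone at day 1, no subunit passed the test. For the diet 0 of 41 subunits were called beside 0.0537% of probe sets, the median was -0.099, and the values ran from -0.41 in Ndufb8 to 0.15 in Ndufa5, both accessory subunits of complex I. The 4 smallest p values were those of Ndufa9, Ndufb7, Cox6a1 and Ndufv1, with differences of -0.36, -0.36, -0.38 and -0.28 and a lowest adjusted p of 0.891. Only Ndufb7 and Uqcrc1 had all 3 diet arrays below the controls, where 6.54% of probe sets did. For perchlorate 0 subunits were called beside 0% of probe sets, the median was 0.10, and the range was -0.32 to 0.58. The 4 smallest p values were those of Uqcrc2 (-0.32), Ndufa5 (0.58), Ndufa3 (0.33) and Ndufa2 (0.50). The last 3 are accessory subunits of complex I, and the lowest adjusted p was 0.487. A dimmer probe set of Uqcrc2 gave 0.11 (limma adjusted p = 0.847). The 3 negative values furthest from 0 were those of Uqcrc2, Ndufs1 and Sdha, the 3 genes that were low in replicate 18. Without the 2 arrays that stood apart, the medians were 0.046 for the diet and 0.031 for perchlorate, and 0 subunits were called in either. Of the 2, only control replicate 22 is in the diet comparison. With single arrays left out the perchlorate median ran from -0.098 to 0.34, the upper value without perchlorate replicate 15.

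These day 1 comparisons share 1 set of control arrays. The diet plus perchlorate arrays were also set against the diet arrays of day 1. Of the 41 subunits, 37 had a negative difference, the median was -0.17, and 8 did not overlap, all lower, where 8.05% of probe sets showed that. The 8 were Ndufb2, Ndufb3, Ndufs7, Ndufv1, Sdha, Sdhc, Uqcrfs1 and Cox4i1. None was called (smallest adjusted p 0.718), beside 0.00537% of all probe sets, and 3 subunits had an unadjusted p under 0.05, where 5.84% of probe sets did. Neither array that stood apart belongs to this comparison, but both enter the spread shared by all groups. In the fit without them, 8 subunits had an unadjusted p under 0.05, beside 12.4% of probe sets, and the smallest adjusted p was 0.0817.

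At day 14 more probe sets were called than at day 1 under diet plus perchlorate, and the median of the subunits lay near 0. Under diet plus perchlorate 8.85% of all probe sets were called and 0 of the 41 subunits, whose median was 0.011 and whose values ran from -0.23 to 0.24. The 95% interval lay within 1 log2 unit of 0 for all 41 subunits in this comparison and within 0.5 for 15. The 2 day 1 arrays that stood apart enter only the shared spread here. In the fit without them 30 intervals lay within 0.5, and 0 subunits were called beside 17.6% of probe sets. Uqcrfs1, Sdhd, Cyc1 and Cox6c had all 3 treated arrays above the controls, where 16.2% of probe sets did, and Ndufv1 had them below, where 20.7% did. Cyc1 is the cytochrome c1 of complex III, and its difference was 0.11 (95% interval -0.34 to 0.56). The smallest adjusted p was 0.324, for Uqcrfs1, followed by Sdhd (0.17), Ndufb3 (0.19) and Cox6c (0.19), with differences that did not pass.

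Perchlorate alone at day 14 called 3.57% of all probe sets and 0 subunits. Here 35 of 41 subunits were negative, with a median of -0.10 against -0.043 over all probe sets, of which 42.8% were positive. Ndufb5, Ndufb6, Ndufb8, Ndufv1 and Sdha were below the controls in all 3 arrays, where 13.4% of probe sets were. Cox5b, a subunit of the oxidase, was at -0.39 (95% interval -0.84 to 0.063, limma adjusted p = 0.462), and Ndufb6 of the membrane arm of complex I at -0.41. Next by p were Ndufv1 at -0.26 and Sdha at -0.18. On the values as deposited 18 of the 41 were positive and their median was -0.034 against 0.056 over all probe sets, so the count of directions depended on the scaling.

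The diet at day 14 called 0.22% of probe sets and 0 subunits, with a median of 0.053 and a range of -0.36 to 0.44. Its smallest p values were those of Ndufv1 (-0.28, adjusted p = 0.673), Cox8a (0.19), Ndufa2 (0.35) and Ndufv2 (0.25). Averaged over both days, the diet gave a median of -0.011 and 0 calls beside 1.03% of probe sets, and 41 intervals lay within 1 log2 unit of 0. Ndufv1 had the smallest p of that average (-0.28, limma adjusted p = 0.328). As deposited, the diet medians were 0.21 at day 14 and 0.15 over both days, while the medians of all probe sets were 0.13 in both.

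Set directly against perchlorate at day 14, the diet gave higher values in 38 of 41 subunits, with a median of 0.19. In 14 subunits the 3 diet arrays were all above the 3 perchlorate arrays, where 7.19% of all probe sets were. These 14 were Ndufa1, Ndufa4, Ndufa9, Ndufb2, Ndufb5, Ndufs4, Ndufs6, Ndufv2, Sdha, Sdhb, Sdhd, Uqcrq, Cox4i1 and Cox7b. None was called (smallest adjusted p 0.999), and 0 had an unadjusted p under 0.05, beside 0.00537% and 3.72% of probe sets. In the fit without the 2 day 1 arrays that stood apart, 6 had an unadjusted p under 0.05, beside 7.69% of probe sets. Sdha was at 12.63, 12.88 and 12.75 on the diet and at 12.55, 12.48 and 12.58 with perchlorate. The median was between 0.13 and 0.22 when single arrays were left out. Ucp1 was 6.92, 8.78 and 9.13 in these diet arrays and 4.29, 4.96 and 9.44 in the perchlorate arrays, and its part in the result was not tested.

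For perchlorate on top of the deficient diet at day 14, 0 subunits were called beside 0.209% of probe sets, with a median of -0.043. The interaction at day 14 called 0 subunits beside 0.0161% of probe sets, with a median of 0.054. The perchlorate effect of day 14 minus that of day 1 called 0 beside 0.553%, with a median of -0.22 and 38 of 41 subunits negative. Its median was 0.014 without perchlorate replicate 18 of day 1 and -0.46 without replicate 15. Between the controls of day 14 and day 1 0 subunits and 0% of probe sets were called. The median of the subunits was -0.18 there, or -0.019 without control replicate 22 of day 1.

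The other genes of oxidative phosphorylation came from lists written for this account. Of 15 listed ATP synthase subunits 13 were tested, and 1 rose under diet plus perchlorate at day 14, where 8.85% of all probe sets were called: Atp5mc3, which codes for a subunit of the rotating c ring. It was at 13.50, 13.47 and 13.50 against 13.02, 13.15 and 13.18 in the controls, without overlap, a rise of 0.38 (SE 0.093, limma adjusted p = 0.0125). The call was lost in 4 of 16 alternative settings, with adjusted p values up to 0.186. Atp5pd, a subunit of the peripheral stalk, was called in the F test (adjusted p = 0.0241, beside 7.8% of all probe sets called), and its call was lost in 6 of 33 settings. Its levels were 10.76, 10.51 and 10.95 in the combined group of day 1, the lowest group mean of the 8. The day 1 controls were at 11.25, 11.01 and 11.22. Perchlorate at day 1 had the highest group mean, with 11.24, 11.68 and 11.90, the last in replicate 18. The day 14 controls were at 11.59, 11.52 and 11.24. The median of the 13 subunits was 0.12 for diet plus perchlorate at day 14 and -0.17 at day 1, where all 13 were negative.

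Of 17 further respiratory subunits outside the 45, 15 were tested and 0 were called in any comparison, with medians of 0.012 at day 14 and -0.17 at day 1 for diet plus perchlorate. Among tissue-specific isoforms, 7 of 9 were measured and 3 were tested. Ndufa4l2, a paralog of Ndufa4 known to be induced by hypoxia, had its highest levels in the perchlorate groups of day 14. It was at 5.98, 5.76 and 5.74 in the controls, at 7.74, 6.61 and 7.03 with perchlorate, at 6.53, 6.76 and 6.50 with the diet, and at 7.61, 7.61 and 8.08 with both. All 9 treated arrays of day 14 were above the 3 controls, and the combined group overlapped the perchlorate group.

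Ndufa4l2 passed the filter on low signal through those 2 groups: its mean over the other 6 groups was 6.18, under the filter at 6.19. Whether the control signal was above background is unknown, so the size of its fold changes is uncertain. The difference was 1.94 for diet plus perchlorate (SE 0.34, limma adjusted p = 0.000946) and 1.30 for perchlorate alone (SE 0.34, limma adjusted p = 0.0331). The first held in all 15 alternative settings that gave a value, with an adjusted p of at most 0.00797. The second was lost in 6 of 15, with an adjusted p of up to 0.2. With no filter, which takes away that selection, the adjusted p was 0.00182 for the first and 0.0577 for the second, beside 4.85% and 1.69% of probe sets called. The diet value of 0.76 did not pass (limma adjusted p = 0.456). At day 1 the controls were at 5.27, 6.28 and 5.56 and perchlorate at 5.83, 6.32 and 7.36, which overlapped. Ndufa4 itself, named for complex I and now assigned to complex IV, was at 0.028 (95% interval -0.24 to 0.29) in the combined group of day 14. Markers of endothelium moved in the same comparison: 7 of 8 tested were called higher, with a median of 1.03, and so were 7 of 8 for macrophages and 8 of 8 for dividing cells, beside 8.85% of all probe sets called. Their part in the result was not tested.

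Among 15 regulators of mitochondrial genes, 1 was called, in a comparison that called 8.85% of all probe sets. Ppargc1a, the coactivator of mitochondrial biogenesis, rose by 1.00 under diet plus perchlorate at day 14 (SE 0.28, limma adjusted p = 0.0241). It was at 10.81, 10.79 and 10.93 against 9.87, 9.94 and 9.71 in the controls, without overlap. The call was lost in 7 of 16 settings, and with the mean of its 3 probe sets it was 0.74 with an adjusted p of 0.209. The other probe sets of the gene gave 0.80 and 0.42, with adjusted p values of 0.524 and 0.39. The 41 subunits had a median of 0.011 in that comparison.

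**Figure D5:**
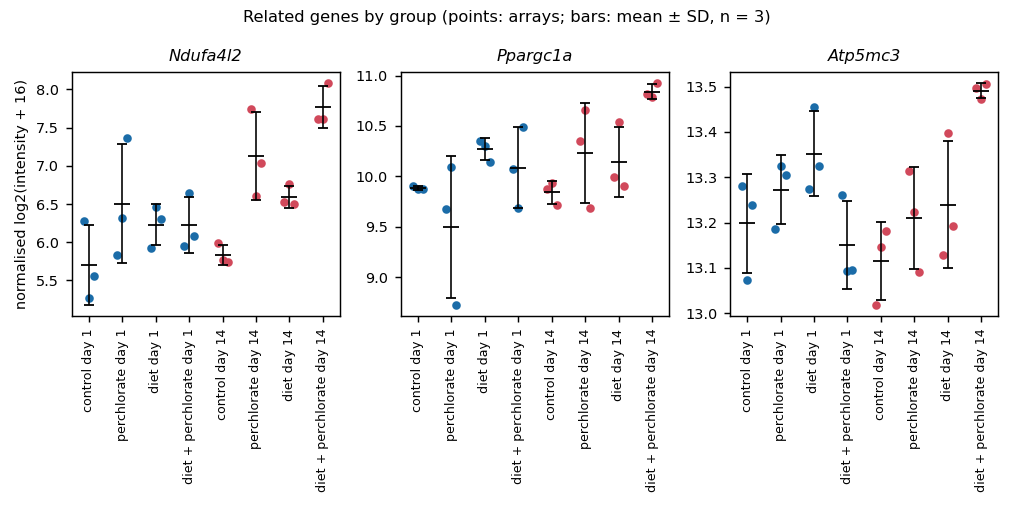
Normalised log2(intensity + 16) of Ndufa4l2, Ppargc1a and Atp5mc3 by group (blue day 1, red day 14; bars are mean ± SD, n = 3; axes do not start at 0). In all 3 genes the arrays with diet plus perchlorate at day 14 are above the controls of that day, by 1.94, 1.00 and 0.38.

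Of 42 assembly factors, which build the complexes, 35 were tested and 1 was called in the F test alone: Atpaf2, which helps assemble the catalytic head of ATP synthase (adjusted p = 0.0418), a call lost in 20 of 33 settings and made beside 7.8% of all probe sets. Their median was -0.13 under diet plus perchlorate at day 14 and -0.16 at day 1. Of 17 genes of the citrate cycle and pyruvate dehydrogenase, which supply NADH and succinate, 14 were tested and 0 were called. Their medians were 0.015 at day 14 and -0.37 at day 1, where 1 of 14 was positive. The 11 tested genes of import, channels and chaperones also gave 0 calls, with medians of -0.053 and -0.24.

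Sequence around the start sites was read for the subunits because regulators of mitochondrial genes are known to bind there. RefSeq promoter windows on the rat assembly GRCr8, 250 bases before to 50 after the start, were found for 39 of the 45 genes. Ndufv1, the 1 subunit called, and Sdha, with repeated matches, are shown over the 100 bases before their starts, at chr1:210734892-210734991 on the minus strand and chr1:30764453-30764552 on the plus strand, 5′ to 3′ along the gene. Capitals mark the recognition word searched for the factor NRF1 where it lies wholly within the printed bases. Another match in Sdha begins 1 base before the start, runs past the printed stretch and is not marked.

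Ndufv1: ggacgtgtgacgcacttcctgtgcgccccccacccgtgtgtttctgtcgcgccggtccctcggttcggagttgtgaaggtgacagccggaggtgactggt
Sdha: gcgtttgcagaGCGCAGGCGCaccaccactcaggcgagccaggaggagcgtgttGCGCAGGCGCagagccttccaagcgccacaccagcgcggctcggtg

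Both strands were searched, and a match is a description of letters, not a binding site. Each subunit was read in its first listed window only. The share over all windows counts every window, so a gene may enter it more than once. The NRF1 word was in 4 of 39 windows (10.3%: Ndufa5, Ndufs6, Sdha and Uqcrc1), against 4.25% of all 33469 windows of 300 bases. The ETS factor word CCGGAAGTG was in 2 (5.13% against 1.89%; Uqcrq and Cox5b), and the ERR word TCAAGGTCA in 1 (2.56% against 0.433%; Sdhd). The word of the factor YY1 was in 8 windows, 20.5% against 0.675%. Of these 8, 7 were genes of complex I (Ndufa2, Ndufa6, Ndufa9, Ndufb8, Ndufs4, Ndufs6 and Ndufs7), and the other was Uqcrc1. Ndufs6 and Uqcrc1 also held the NRF1 word, at places that do not overlap. The YY1 word began between 1 base before and 26 bases after the start in all 8, and it holds the letters ATG. The next lines give 4 of these sites, with the word in capitals, because the same letters recur at the starts of complex I genes. They lie at chr7:115750282-115750311, chr4:161374140-161374169, chr2:47794890-47794919 and chr7:10110474-10110503, all on the minus strand.

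Ndufa6: ttccttagcAAGATGGCGGCcgcggccagc
Ndufa9: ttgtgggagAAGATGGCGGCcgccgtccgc
Ndufs4: gcccacaggAAGATGGCGGCggtctcaatg
Ndufs7: gccgaggccAAGATGGCGGCgctggcgggt

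The relation of the YY1 word to the values above was not tested. In diet plus perchlorate at day 1, where 36 of all 41 subunits were negative, Ndufs7 was at -0.61 and Ndufa9 at -0.44. Ndufs4 was at 0.031 and Ndufa2 at 0.018. The rest of the 8 genes with the word had lower means in that group than in its controls. Their means were 10.40 against 10.69 for Ndufa6 and 6.19 against 6.41 for Ndufb8. For Ndufs6 they were 11.86 against 12.03, and for Uqcrc1 11.24 against 11.67. Yy1 itself was tested among the regulators and was not called in any comparison (adjusted p = 0.271 in the F test).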

How the data were processed

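Each deposited value is a probe set's signal intensity on a linear scale, made with GCOS per the submitters' processing notes; its version and scaling target are not given in the sources used here. Median intensity per array ran from 83.3 to 130.1; precision is limited by 3 arrays a group. Groups were taken from sample titles. Of 31099 probe sets, 57 controls were left out. Values were computed as log2(intensity + 16) and quantile normalised, and those below the 40th percentile of mean signal were dropped, leaving 18625 of 31042. A fold change on that scale understates changes of dim probe sets. Limma 3.58.1 in R 4.3.3 fitted 1 mean per group over 24 arrays with eBayes and a mean-variance trend. Tests were two-sided, with Benjamini-Hochberg adjustment over all probe sets tested, and were tested on simulated data. The simulated noise was independent between probe sets, so arrays in which many probe sets move together were not covered. Genes were named by the platform annotation where it gave 1 symbol (20826 probe sets; 436 had several and 9780 none).

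The subunits and lists were chosen with earlier results of these data known. Full values are given for any subunit called and for that of smallest F-test p in each complex. The text also names the 4 of smallest p in the main comparisons, and called genes of the other lists. Genes named for their overlap or for low values in an array were chosen after their values were seen. Of the subunits, 4 had 2 probe sets (Ndufa7, Ndufa9, Sdhd and Uqcrc2). Alternatives were other pseudocounts, scalings and filters, array weights, the mean of all probe sets, and leaving out single arrays or both that stood apart.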

Additional observations from a re-analysis of the deposited data

How the results depend on the processing

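No paired analysis was possible because each replicate number belongs to 1 array only. Over 14 comparisons and the F test, the number of subunits called was recomputed under the alternatives. The F test called 1 subunit, and 0 with values as deposited, with a common median or without a filter; array quality weights gave 5 (26.5% of all probe sets), and leaving out single arrays gave 0 to 5. The 5 without perchlorate replicate 15 of day 1 were Ndufb7, Ndufv1, Sdhc, Uqcrc1 and Uqcrfs1, beside 11.8% of all probe sets. Without diet replicate 8 of day 1 there were 2, Ndufv1 and Sdhc, beside 7.51%. Array quality weights called 4 subunits for diet plus perchlorate against control at day 1 (Ndufv1, Sdhc, Uqcrc1 and Uqcrfs1, beside 3.64% of probe sets) and 1 for the diet over both days (Ndufv1, beside 7.19%); replicate 18 had a weight of 0.065 there, and the fit of the weights stopped before its tolerance was reached. Leaving out both day 1 arrays that stood apart called 1 for diet plus perchlorate at day 1, beside 1.82%. Of 281 such counts, 267 were 0. No called value changed sign. Leaving out single arrays moved the median of the perchlorate comparison at day 1 from 0.10 to between -0.098 and 0.34, so its sign was not stable. The upper value came without perchlorate replicate 15. The causes were not tested. Detection calls were not used here, so signal over background is unknown, and 3 arrays a group limit precision. In the main fit most subunits had a 95% interval reaching beyond 0.5 log2 units from 0. This held for each treatment against the control of its day. Without the 2 day 1 arrays that stood apart, 23 to 32 of the 41 intervals lay within 0.5 in these comparisons.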

Other observations

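COX1 and COX2, subunits of complex IV coded in mitochondrial DNA, were also on the array, and they were added after the annotation had been seen. Both were among the brightest probe sets, so their deposited intensities are given. COX1 ran from 17047 to 20826 in the day 14 controls and from 17207 to 17725 under diet plus perchlorate at day 14, within the control range. At day 1 it ran from 18305 to 19935 in the controls and from 18589 to 20084 under diet plus perchlorate. COX2 ran from 12186 to 16798 in the day 14 controls and from 13679 to 14550 in the combined group. Neither passed the F test over the 8 groups with limma, with adjusted p values of 0.92 for COX1 and 0.915 for COX2. Quantile normalization gives the brightest ranks nearly fixed values. COX1 was held between 14.09 and 14.30, with the same values recurring across arrays. The test could therefore hardly show a difference in COX1, and little is concluded from it for either gene. Cox8b, the subunit 8 form of muscle and brown fat, ran from 4.11 to 9.80 over the 24 arrays, with 9.75 and 9.80 in the day 1 arrays that stood apart, and its adjusted p in the F test was 0.122.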
